A study of Homo sapiens with 40 samples.

Results

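The 343 genes described here are the expressed members of the ZNF zinc finger family in H1 cells, an established human embryonic stem cell line, and in the mesoderm-directed cells derived from it. They were chosen from the 57939 genes of the deposited total RNA table as protein-coding genes named ZNF followed by a number, with a mean of 5 TPM (a length-scaled share of the RNA in a library) or more over the 6 INPUT libraries of unfractionated RNA. Of the 510 genes with such a name, 343 passed, and 58 of the 167 that did not were listed at 0 in all 6 libraries. Day 0 cells were kept in mTeSR1 on matrigel, and differentiating cells received BMP4 in serum-containing medium for the first day and bFGF after it, with days 3 and 5 sampled. On each day, RNA was sequenced from INPUT, from a cytoplasmic extract (CE), a membrane extract (ME), a soluble nuclear extract (SNE), a chromatin-bound nuclear extract released with micrococcal nuclease (CBNE) and a final pellet extract (PE), all total RNA, with 2 libraries per group and 36 in all. Another 4 libraries hold polyA RNA of day 0 cytoplasm and nucleus, 2 each. All groups come from the same cell line, and the labels do not say whether the 2 libraries of a group came from separate cultures, so p-values measure the spread between these libraries only.

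C2H2 zinc fingers are small folds held by a zinc ion that read DNA a few bases at a time, and ZNF proteins carry them in arrays. Many ZNF proteins also carry a KRAB box, which recruits the corepressor TRIM28 and, through it, histone methylation to transposable elements and imprinted regions, a silencing system that is prominent in pluripotent cells. Neighbouring fingers are joined by a conserved linker, threonine-glycine-glutamate-lysine-proline, and many KRAB genes arose by local duplication, so family members share sequence. A finger from 4 members is shown to make that likeness visible: 3 with the largest nuclear excess or a known transposon target, and ZNF33A from outside their chromosomes. Each run is 78 bases of the coding strand of GRCh38, read with GENCODE 29 coordinates, with the 15 bases of the linker codons in capitals. They lie at chr19:20806291-20806368 on the plus strand (ZNF66), chr18:14105583-14105660 on the minus strand (ZNF519), chr19:23362100-23362177 on the minus strand (ZNF91) and chr10:38055199-38055276 on the plus strand (ZNF33A).
ZNF66: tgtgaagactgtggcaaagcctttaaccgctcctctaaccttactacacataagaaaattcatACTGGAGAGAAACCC
ZNF519: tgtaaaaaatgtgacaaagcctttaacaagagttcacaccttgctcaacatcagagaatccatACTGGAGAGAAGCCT
ZNF91: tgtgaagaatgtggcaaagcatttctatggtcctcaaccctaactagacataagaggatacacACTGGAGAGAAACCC
ZNF33A: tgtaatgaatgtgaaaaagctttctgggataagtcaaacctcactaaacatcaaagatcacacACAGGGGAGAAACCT
The runs of ZNF66 and ZNF91, both on chromosome 19, were identical at 63 of 78 bases (80.8%). ZNF66 and ZNF33A were identical at 49 bases (62.8%), the lowest of the 6 pairs. Of the 343 members, 29 shared more than 10% of their 50-base stretches of exon with another annotated gene, while 161 shared none. In 43 members more than 10% of the exon length was overlapped by a gene on the opposite strand, and in 10 by a gene on the same strand. Reads of such genes could be split or merged in counting, and values of members so marked below are uncertain.

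A KRAB box was found by its sequence pattern in 210 members (61.2%) and a SCAN domain, a pairing module of part of the family, in 20, of which 7 had both. The pattern can miss divergent boxes, so that the other 133 are those in which none was found. On chromosome 19 lay 164 members (47.8%), 139 of them with a KRAB box, followed by chromosome 16 with 23 and chromosome 7 with 22. The median member had 10 fingers, a coding length of 1761 bases, a total exon length of 5424 bases and a gene span of 24.7 kb (1.00 to 370.4 kb). The most fingers, 33, were found in ZNF462.

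Levels in INPUT chose the members and are given as a description. The mean over the 6 INPUT libraries ran from 5.01 to 339 TPM with a median of 19.4, and 39 members reached 50 TPM and 9 reached 100. The highest were ZNF281 (339 TPM), a transcription factor of the pluripotency network, ZNF770 (325), ZNF121 (228), ZNF593 (157), a small protein of ribosome assembly, and ZNF24 (139), a SCAN protein. The whole exon length of ZNF593 is overlapped by a gene on the opposite strand, as is 31.9% of that of ZNF770. Just inside the threshold were ZNF182 (5.29 TPM), ZNF773 (5.15) and ZNF35 (5.01), and just outside it ZNF345 (4.91), ZNF407 (4.78) and ZNF821 (4.78). On single days 336, 340 and 334 members reached 5 TPM on days 0, 3 and 5, and 326 did so on all of them.

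INPUT of the pluripotency gene POU5F1 was 80.9 ± 2.54 TPM on day 0 and 36.2 ± 2.05 on day 5 (mean ± SD, n = 2), and that of the mesoderm gene HAND1 0.740 ± 0.389 and 787 ± 30.0. SOX2, a defining gene of these cells, was listed at 0 throughout, so a gene listed at 0 is not read here as absent. On day 0 the nuclear RNA MALAT1 was higher in SNE than in CE by a log2 difference of 2.13 ± 0.14 (SE) and GAPDH mRNA lower, at −2.94 ± 0.12, while the mitochondrial MT-ND2 was higher in SNE by 4.13 ± 0.13. The SNE thus held more mitochondrial RNA than the CE, and counts with totals taken again without it are given with the nuclear differences below. Reads assigned to genes, estimated from the step between low TPM values, numbered 734666 to 1570246 in INPUT, CE, ME and SNE libraries, 32913 to 400617 in PE, 16703 to 75790 in CBNE and 4071267 to 5523152 in the polyA libraries. In the total RNA libraries only 47.4% to 59.3% of low values lay close to a whole number of steps, against 99.5% to 99.6% in polyA. The estimates also use the median annotated transcript length of each gene, so those for total RNA are rough. In CBNE 8 to 48 members were at 0, so CBNE and PE are described only through sums and medians.

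The members made up a larger share of the mRNA in nuclear than in cytoplasmic extracts on each day. Of all protein-coding TPM they held 1.24% ± 0.017 in INPUT on day 0, 1.14% ± 0.037 on day 3 and 1.06% ± 0.017 on day 5 (mean ± SD, n = 2). In CE the share was 1.38% ± 0.024, 0.909% ± 0.066 and 0.982% ± 0.024 on those days, and in ME 0.913% ± 0.022, 0.851% ± 0.050 and 0.960% ± 0.029. In SNE it was 2.31% ± 0.010, 1.96% ± 0.0047 and 2.17% ± 0.063. The SNE libraries of each day lay above all INPUT, CE and ME libraries, with no overlap. In CBNE the shares were 1.91% ± 0.090, 2.15% ± 0.048 and 2.23% ± 0.052, and in PE 1.18% ± 0.10, 1.65% ± 0.022 and 1.71% ± 0.13. Within the CE, both day 0 libraries lay above all libraries of days 3 and 5.

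**Figure D1:**
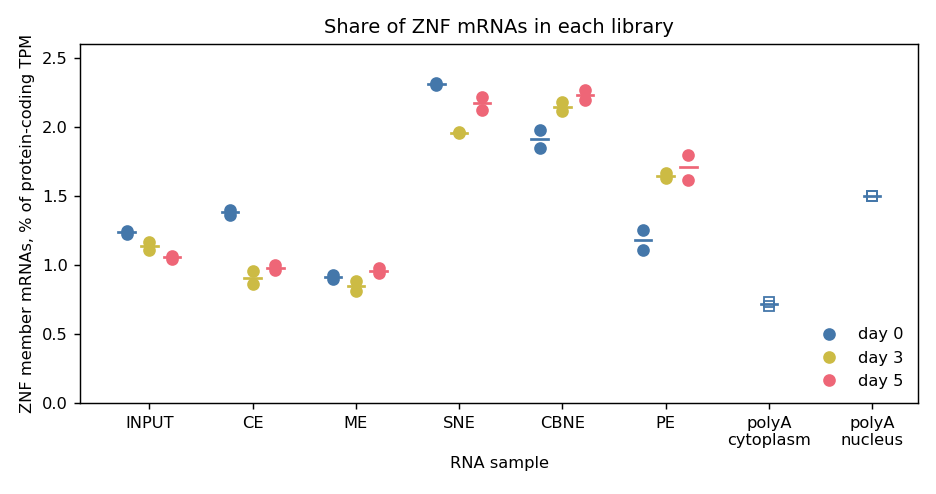
Share of protein-coding TPM held by the 343 ZNF mRNAs in each library (points), by RNA sample on the horizontal axis and coloured by day, with horizontal bars at the mean of the 2 libraries and open squares for polyA RNA. SNE points sit between 1.96% and 2.31% as group means, above INPUT, CE and ME on every day.

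Nuclear and cytoplasmic levels of each member were then compared with limma on log2(TPM + 1) across all 24735 genes with 1 TPM or more in at least 2 of the 36 libraries. A gene was called when its Benjamini-Hochberg adjusted p was under 0.05 and its log2 difference was 1 or more in size. The spread of each gene came from one fit over all 36 libraries, the shallow CBNE and PE libraries included. An SE or p-value of this fit is therefore not the spread of the compared libraries alone. On day 0, 134 of the 343 members were higher in SNE than in CE and 21 lower, where 30.0% of all genes tested were called higher and 8.66% lower. Their median log2 difference was 0.66, against 0.53 for all genes and 0.43 for the 9527 other protein-coding genes at the same INPUT threshold. On day 3, 184 were higher and 8 lower (30.5% and 6.64% of all genes), with a median of 1.15 against 0.54 for all genes and 0.59 for the other protein-coding genes. On day 5, 174 were higher and 12 lower (35.9% and 8.17%), with a median of 1.12 against 0.65 and 0.61. The split depended on scaling: with every library brought to a common median, the counts became 52 higher and 77 lower on day 0, 71 and 48 on day 3, and 66 and 78 on day 5. With quantile normalisation they were 84 and 46, 101 and 23, and 101 and 41. Under the common median the members' median difference was −0.21, 0.04 and −0.18 on the 3 days and that of all genes −0.35, −0.57 and −0.65. Under quantile normalisation it was 0.11, 0.38 and 0.22, and that of all genes 0.0 on each day. Shares of all genes called are given here and below for the TPM scale only. Counts under other scalings therefore show how calls depend on scaling and are not set against all genes. With totals taken again without mitochondrial and structured RNA, 164 were higher and 9 lower on day 0, 226 and 1 on day 3, and 207 and 9 on day 5. Without replicate 2 of day 0 SNE, 13 members were lower on day 0, and leaving out any of the 4 day 3 libraries of CE and SNE gave 4 to 5 lower on day 3.

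The days use separate libraries, and 130 members were higher in SNE on all 3. That is 97.0% of the day 0 list, and the 169 shared by days 3 and 5 are 91.8% and 97.1% of those lists. These overlaps are on the TPM scale. The overlap between days over all genes tested was not counted, so they are not read as particular to the members. Lower on all 3 days were 7 members, no member was called higher on one day and lower on another, and 131 were called on none. For day 5 the library numbers in the labels fall into separate runs of numbers, with CE in one and SNE in the other. The day 5 difference and that split cannot be told apart, which holds also for the changes from day 0 to day 5 below.

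**Figure D2:**
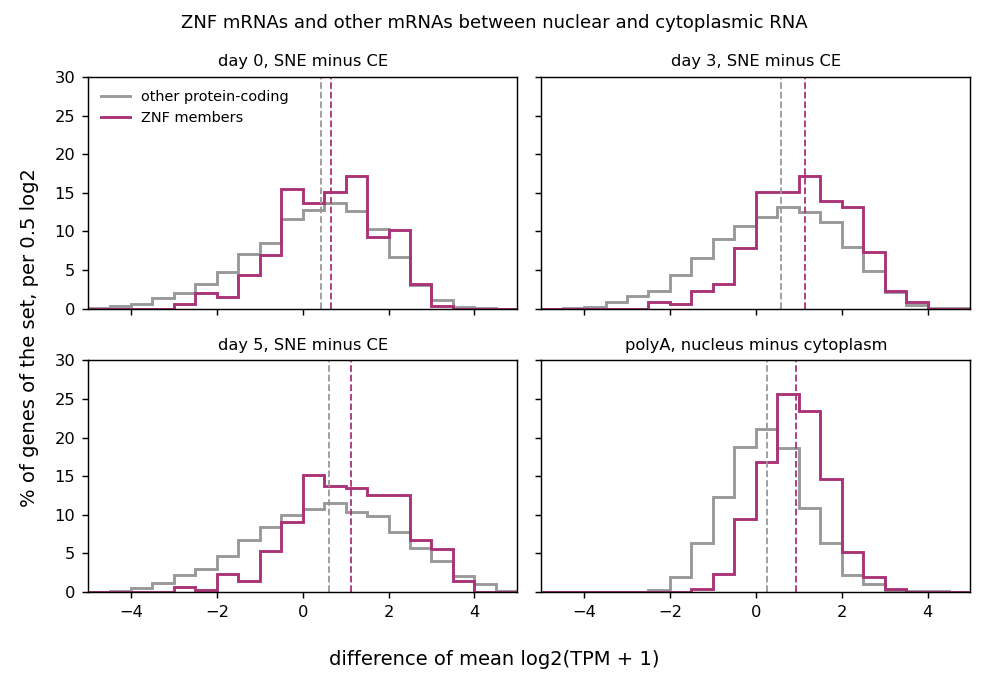
Distribution of the difference of mean log2(TPM + 1) between nuclear and cytoplasmic RNA for ZNF members (purple) and other protein-coding genes at the same INPUT threshold (grey), in bins of 0.5 log2 as a percentage of each set, with dashed lines at the medians. The purple median lies right of the grey one in each panel, by the least on day 0 (0.66 against 0.43).

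ZNF66, a KRAB gene at chr19:20776304-20807322 with 13 fingers, showed the largest nuclear excess on day 0. It was at 12.5 and 10.8 TPM in the 2 CE libraries and 110.4 and 114 in SNE, a log2 difference of 3.17 ± 0.17 (SE; adjusted p = 6.95e-12). INPUT lay between them, at 30.2 and 31.2 TPM, and the extracts did not overlap on any day. ZNF519, a KRAB gene at chr18:14057457-14132490, was at 15.9 and 16.9 TPM in CE and 136 and 139 in SNE on day 0 (2.99 ± 0.21). On day 3 its CE values were 4.78 and 5.32 and its SNE values 76.2 and 75.9 (3.67 ± 0.21), so that both extracts were lower than on day 0 and the gap wider. Next on day 0 came ZNF277 (2.84 ± 0.29), the KRAB genes ZNF480 (2.76 ± 0.22) and ZNF33A (2.59 ± 0.18), and ZNF827 (2.59 ± 0.21), a protein of the nucleosome remodelling machinery at telomeres. ZNF292, a large zinc finger protein with no KRAB box found, was at 11.4 and 13.2 TPM in CE and 133 and 132 in SNE on day 3 (3.33 ± 0.17). The highest on days 3 and 5 also held the KRAB genes ZNF493 (3.66 ± 0.48 and 3.65 ± 0.48) and ZNF69 (3.32 ± 0.15 on day 3), with ZNF117 (3.25 ± 0.25 on day 3). On day 5 they held ZNF644 (3.53 ± 0.20), a partner of the G9a and GLP histone methyltransferases, and ZNF148 (3.47 ± 0.23), a factor that binds GC-rich promoters. Of these genes, ZNF66 shares 10% of its 50-base stretches with other genes.

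The 6 members with the largest cytoplasmic excess among those called on day 0 were short genes in which no KRAB box was found. ZNF768 at chr16:30524001-30526821 spans 2.82 kb and was at 149 and 143 TPM in CE and 30.3 and 20.5 in SNE on day 0 (−2.50 ± 0.31; adjusted p = 6.29e-07). ZNF574 was at 48.5 and 49.5 in CE and 7.96 and 8.22 in SNE (−2.46 ± 0.19; adjusted p = 7.36e-10). Both CE libraries exceeded both SNE libraries several-fold in each case. The largest difference was that of ZNF358 (−2.72 ± 0.93), which is uncertain since 20% of its exon length is overlapped on the same strand and as much of its sequence is shared. The other 3 were ZNF703 (−2.44 ± 0.71), a corepressor of the NET family, ZNF511 (−2.38 ± 0.84), which shares reads with the readthrough gene ZNF511-PRAP1, and ZNF835 (−2.12 ± 0.68).

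**Figure D3:**
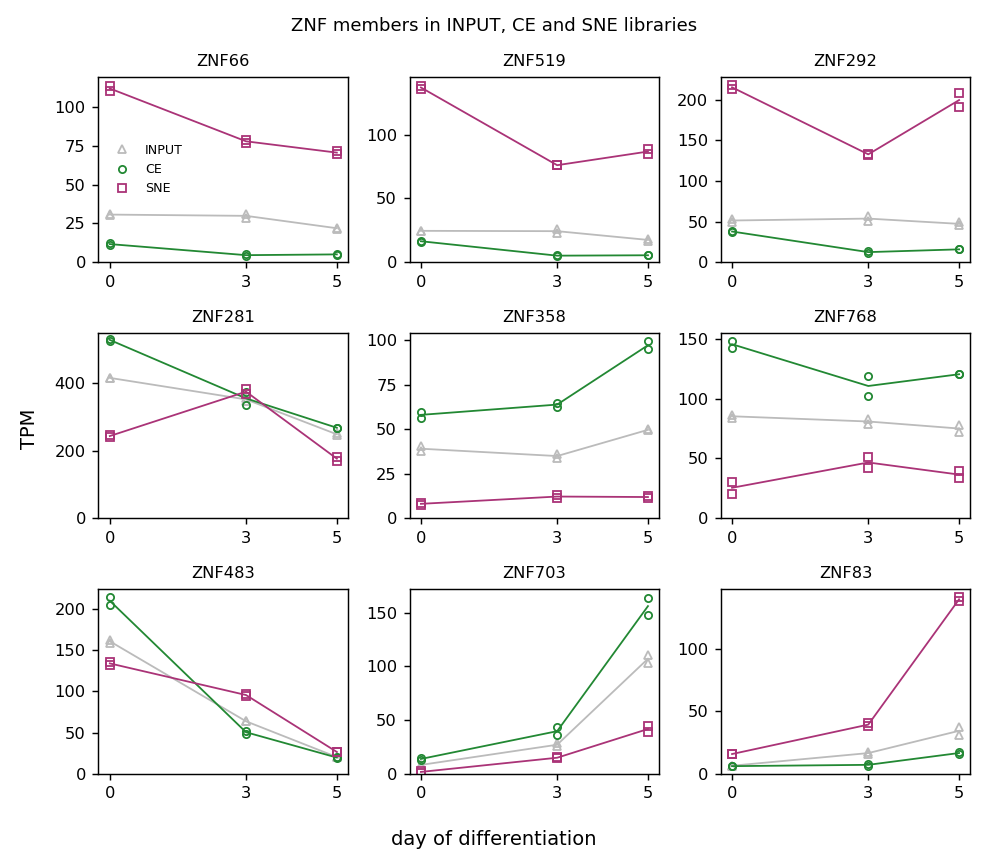
TPM of 9 members in INPUT (triangles), CE (circles) and SNE (squares) by day of differentiation, with 1 point per library and lines through the means of 2 libraries. ZNF66, ZNF519 and ZNF292 lie higher in SNE than in CE on each day, ZNF358 and ZNF768 lower, and ZNF83 in SNE reaches 138 and 141 TPM on day 5.

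Gene span, which the selection did not use, went with the nuclear difference. Across the 343 members the Spearman correlation of span with the SNE minus CE difference was 0.679 over the day 0 libraries, 0.676 over those of day 3 and 0.704 over those of day 5. These are relations across genes of the same libraries, which are not independent replicates, and the 9527 other protein-coding genes gave 0.723, 0.735 and 0.775. Total exon length gave 0.316 on day 0 and mean INPUT level −0.099. Among the 114 members of the shortest of 3 equal span classes, below 17.7 kb, 12 were higher in SNE and 19 lower on day 0, with a median of −0.34. In the middle class 37 of 114 were higher and 2 lower (median 0.71), and in the longest, above 32.1 kb, 85 of 115 were higher and 0 lower (median 1.58). Of all genes tested 30.0% were called higher and 8.66% lower, so the 37 of 114 was near the share of all genes. Other protein-coding genes cut at the same spans had medians of −0.88, 0.18 and 1.21, and the members lay above them in each of the 3 classes on the TPM scale. Spans within a class were not matched between the sets, and the longest class has no upper limit. The longest member, ZNF423 at 370.4 kb, was at 8.42 and 8.64 TPM in CE and 22.7 and 23.2 in SNE on day 0 (1.33 ± 0.10).

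Members with a KRAB box had a median difference of 0.87 on day 0, with 96 of 210 higher and 3 lower, and those without one a median of −0.02, with 38 of 133 higher and 18 lower. On day 3 the counts were 130 and 1 against 54 and 7, and on day 5 123 and 2 against 51 and 10. Of all genes tested 30.0%, 30.5% and 35.9% were called higher on days 0, 3 and 5, and 8.66%, 6.64% and 8.17% lower. Without the box, the 38 of 133 higher on day 0 and 51 of 133 on day 5 were near those shares. The 2 classes differ in span, and within the shortest class 10 of 56 KRAB members were higher and 2 lower (median 0.08), against 2 and 17 of 58 without the box (median −0.83). In the middle class the counts were 30 and 1 of 81 (median 0.75) against 7 and 1 of 33 (0.58), and in the longest 56 and 0 of 73 (1.61) against 29 and 0 of 42 (1.37). The gap between the medians was thus widest among short genes, and in the longest class on day 5 both medians were 2.22. Position on chromosome 19 did not order them in the same way: the 71 KRAB members on other chromosomes had the highest day 0 median (1.23, with 42 higher and 1 lower), and the 25 members without the box on chromosome 19 had −0.46, with 3 higher and 9 lower. By number of fingers, 20 of 53 members with 1 to 5 were higher on day 0, 34 of 107 with 6 to 10, 49 of 113 with 11 to 15 and 22 of 53 with 16 or more. The 34 of 107 was near the 30.0% of all genes. The 17 members in which no finger was found counted 9 higher and 1 lower. These classes were compared by counts and medians only, and no test of the difference between them was made.

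**Figure D4:**
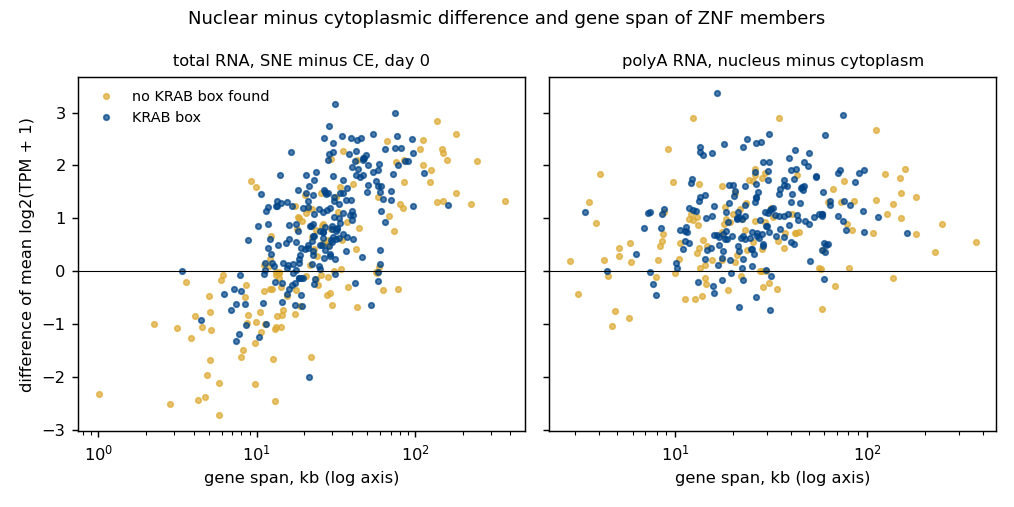
Difference of mean log2(TPM + 1) between nuclear and cytoplasmic RNA of ZNF members against gene span in kb (log axis), for total RNA on day 0 (left) and polyA RNA (right), with KRAB members in blue and the others in yellow. The rank correlation is 0.679 on the left and 0.286 on the right.

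Ratios of the extracts to INPUT are a description, since INPUT chose the members, and are set beside those of the other protein-coding genes chosen by the same INPUT threshold and cut at the same spans. On day 0 the CE had a median log2 ratio to INPUT of 0.32 in the shortest class of members and −0.13 in the longest, where the other genes had 0.39 and 0.0041. The SNE had 0.01 and 1.42, where the other genes had −0.48 and 1.21. In the longest class the CE ratio was −0.95 on day 3 and −0.59 on day 5 (other genes −0.63 and −0.34). In ME the shortest class had −0.72 on day 0 and −0.06 on day 5 (other genes −1.08 and −0.47).

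Most members known from transposon silencing were higher in SNE than in CE on the TPM scale, and none passed as lower on any day. Of 11 such genes listed, 8 were members, and ZNF417, ZNF534 and ZNF10 were not. On day 0, 5 of the 8 were higher in SNE (median 1.21, against 0.53 for all genes), and 6 on days 3 and 5, where 30.0%, 30.5% and 35.9% of all genes were called higher on the 3 days. ZNF91, which represses SVA elements in hominids, was at 19.9 and 20.5 TPM in CE and 88.7 and 88.5 in SNE on day 0 (2.08 ± 0.14; adjusted p = 1.01e-10) and at 14.9 and 14.9 in CE and 137 and 143 in SNE on day 5 (3.15 ± 0.14). Both SNE libraries were higher and both CE libraries lower on day 5 than on day 0, and the extracts did not overlap on any day. ZNF93, which represses LINE-1 elements, was at 23.7 and 24.6 TPM in CE and 63.2 and 64.8 in SNE (1.37 ± 0.08). ZNF141, another LINE-1 binder, had 1.82 ± 0.10, ZNF525 1.54 ± 0.20 and ZNF765 1.06 ± 0.14. Those that did not pass on day 0 were ZNF382 (0.59 ± 0.36), ZNF649 (0.11 ± 0.22) and ZNF587 (0.54 ± 0.29), a repressor of HERV-K. ZNF587 and ZNF382 passed on days 3 and 5 (1.44 ± 0.29 and 1.28 ± 0.29 for ZNF587), and ZNF765 on day 0 only. ZNF587 shares 20% of its exon sequence with its neighbour ZNF417, which was listed at 0.030 TPM, and is uncertain. With a common median only ZNF91 of the list still passed on day 0, with quantile normalisation ZNF91, ZNF141 and ZNF525, and 0 passed as lower under either. ZNF382, ZNF587 and ZNF649 then turned negative with the common median (−0.29, −0.34 and −0.76).

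The stem cell and developmental regulators were divided between the extracts. Of 13 listed, 11 were members (not ZNF521 and ZNF503), and on day 0 ZNF207, ZNF462, ZNF423 and ZNF143 were higher in SNE and ZNF281, ZNF768 and ZNF703 lower, where 30.0% and 8.66% of all genes were called. ZNF207, a spindle protein that binds BUB3, was at 131 and 134 TPM in CE and 348 and 352 in SNE (1.40 ± 0.35), though 21% of its exon sequence is shared with another gene. ZNF462 was at 61.6 and 63.3 in CE and 156 and 162 in SNE (1.33 ± 0.21), and ZNF143, an activator bound at many promoters, had 1.05 ± 0.16. ZNF281 went the other way on day 0, at 527 and 532 TPM in CE and 247 and 240.5 in SNE (−1.12 ± 0.12; adjusted p = 9.96e-08). On day 3 its CE values were 336 and 375 and its SNE values 369 and 382, so the extracts overlapped, and the difference was 0.08 ± 0.12. The change between those days passed the test (1.20 ± 0.17; adjusted p = 0.000106). ZNF217, a factor that works with histone deacetylase complexes, moved likewise, from −0.68 ± 0.16 to 0.47 ± 0.16, a change of 1.16 ± 0.23 (adjusted p = 0.00263). Values that did not pass on day 0 were −0.68 ± 0.16 for ZNF217, −0.73 ± 0.17 for ZNF219, −0.02 ± 0.10 for ZNF398 and 0.27 ± 0.28 for ZNF445, a KRAB guardian of imprinted regions that passed on day 3 (1.22 ± 0.28). Under the common median 0 of the list passed as higher on day 0 and 5 as lower (ZNF217, ZNF219, ZNF281, ZNF703 and ZNF768), and ZNF445 turned negative (−0.60). With quantile normalisation ZNF207 and ZNF462 were higher and ZNF703 and ZNF768 lower.

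Of the members that handle RNA, ribosomes or proteins rather than promoters, the same 4 were higher in SNE than in CE on each day on the TPM scale. All 9 listed genes were members, and 4 were higher and 0 lower, where 30.0%, 30.5% and 35.9% of all genes were called higher on the 3 days. ZNF638, an RNA-binding protein that silences unintegrated retroviral DNA, was at 37.0 and 37.5 TPM in CE and 163 and 166 in SNE on day 0 (2.11 ± 0.20). ZNF326, which links splicing to RNA polymerase, was at 34.8 and 36.5 in CE and 113 and 117 in SNE (1.66 ± 0.31). In both the SNE libraries exceeded every CE library, and the other 2 were ZNF451 (1.20 ± 0.17), a SUMO ligase, and ZNF346 (1.40 ± 0.17), which binds double-stranded RNA. The day 0 values of the others were 0.22 ± 0.17 for ZNF598, the ligase that senses collided ribosomes, 0.49 ± 0.26 for ZNF706, −0.03 ± 0.54 for ZNF330, −1.06 ± 0.67 for ZNF622, a factor of the large ribosomal subunit, and −2.33 ± 1.32 for ZNF593. For ZNF593 the 2 CE libraries held 266 and 246 TPM and the SNE libraries 62.5 and 40.0, which did not overlap but did not pass the adjusted threshold (adjusted p = 0.151). When libraries were brought to a common median, ZNF638 passed as higher and ZNF593 and ZNF622 as lower, with ZNF598 and ZNF706 turned negative (−0.65 and −0.39). With quantile normalisation ZNF326 and ZNF638 were higher and ZNF622 lower.

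Whether the members stood lower or higher in the membrane extract than in CE turned with the scaling, while the members named here for day 0 kept their direction under every setting run. ME and SNE were each compared with the same CE libraries. On day 0, 9 members were higher in ME than in CE and 50 lower, where 1.41% of all genes were called higher and 15.2% lower (median −0.46, all genes −0.11). The members' 14.6% lower was thus near the share of all genes. Of the other protein-coding genes at the same INPUT threshold, 1.26% were higher and 32.7% lower, with a median of −0.71, below that of the members. On day 3, 3 were higher and 5 lower (1.00% and 6.82%), and on day 5, 9 and 3 (1.69% and 6.40%). The members' medians were 0.09 on day 3 and 0.16 on day 5. Those of the other protein-coding genes were −0.29 and −0.27, with 15.1% and 14.0% called lower. MT-ND2 was at 42967 ± 2071 TPM in day 0 ME and 738 ± 15.6 in CE (mean ± SD, n = 2), and with totals taken again without mitochondrial and structured RNA 136 were higher and 2 lower on day 0, 172 and 1 on day 3, and 160 and 0 on day 5. With a common median the day 0 counts were 19 and 33, and with quantile normalisation 57 and 13. On day 3 the counts rested on single libraries: without ME replicate 2 they were 1 and 1, and without ME replicate 1, 5 were higher. On day 5, 15 were higher without ME replicate 1 and 2 without ME replicate 2. By library number, day 5 ME replicate 1 falls in the run of CE and replicate 2 in that of SNE. The largest day 0 excess was that of ZNF480, at 13.3 and 12.6 TPM in CE and 53.8 and 53.4 in ME (1.97 ± 0.22). ZNF66 followed at 36.5 and 37.1 TPM in ME (1.59 ± 0.17), then ZNF829 (1.52 ± 0.24), ZNF33A (1.44 ± 0.18), ZNF107 (1.39 ± 0.22) and ZNF69 (1.39 ± 0.15), all KRAB genes. Lowest were ZNF358 (−2.54 ± 0.93), ZNF574 (−2.31 ± 0.19), ZNF703 (−2.29 ± 0.71), ZNF768 (−2.23 ± 0.31), ZNF296 (−2.22 ± 0.22) and ZNF689 (−2.18 ± 0.32). ZNF574 was at 7.90 and 10.4 TPM in ME on day 0 and 31.1 and 24.4 on day 3, while its CE values were 48.5 and 49.5 and then 36.6 and 37.7. On day 5 the members higher in ME included ZNF69 (1.46 ± 0.15), ZNF66 (1.29 ± 0.17), ZNF480 (1.17 ± 0.22), ZNF91 (1.12 ± 0.14), ZNF117 (1.12 ± 0.25) and ZNF292 (1.07 ± 0.17). The 3 lower ones were ZNF414 (−1.61 ± 0.35), ZNF428 (−1.16 ± 0.17) and ZNF689 (−1.03 ± 0.32).

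The polyA libraries, made from the nucleus and cytoplasm of day 0 cells, hold a separate measure. The members' share of protein-coding TPM was 0.720% ± 0.023 in cytoplasm and 1.502% ± 0.0020 in nucleus (mean ± SD, n = 2). All 343 members were found in this table by gene identifier and 308 passed its filter on low values. Of these, 140 were higher in the nucleus and 1 lower, where 30.0% of the 16667 genes tested were called higher and 6.22% lower. Their median was 0.93, against 0.50 for all genes and 0.25 for the other protein-coding genes. With a common median the counts were 66 and 11, and with quantile normalisation 72 and 11. The fit has 2 residual degrees of freedom.

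ZNF519 was at 6.96 and 7.57 TPM in polyA cytoplasm and 63.5 and 61.7 in polyA nucleus (2.95 ± 0.07; adjusted p = 3.95e-06), and ZNF292 at 15.95 and 18.1 in cytoplasm and 114 and 113 in nucleus (2.67 ± 0.07). Both were among the most nuclear members in total RNA too. The others at the top were ZNF221 (3.37 ± 0.30), ZNF594 (2.89 ± 0.08), ZNF117 (2.89 ± 0.06) and ZNF66 (2.59 ± 0.13). The 1 lower member was ZNF511, at 7.09 and 6.52 TPM in cytoplasm and 2.22 and 3.52 in nucleus (−1.03 ± 0.19). Higher both in the polyA nucleus and in day 0 SNE were 89 members, 63.6% of the polyA list and 71.2% of the 125 day 0 SNE genes that were tested in polyA RNA. The same overlap over all genes was not counted. ZNF646 was higher in the polyA nucleus (1.68 ± 0.06) and lower in day 0 SNE (−1.36 ± 0.24). Of the 19 members lower in day 0 SNE and tested here, 9 had a polyA difference above 0. Across the 308 members the 2 differences had a Spearman correlation of 0.606, as a description across genes.

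Span ordered the polyA differences less. Its correlation was 0.286 over the 308 members and 0.223 over 9082 other protein-coding genes. From the shortest to the longest class of span the medians were 0.58, 0.93 and 1.08, where other protein-coding genes of those spans had −0.01, 0.12 and 0.41. KRAB members had 100 of 190 higher and 0 lower (median 1.04), the rest 40 of 118 and 1 (median 0.72). Of all genes tested 30.0% were called higher and 6.22% lower, so the 40 of 118 was near the share of all genes. Of the listed transposon repressors 5 of 7 tested were higher, of the stem cell and developmental regulators 3 of 10, and of the RNA and protein handling genes 3 of 8, with 0 lower in each list. ZNF598 was among the last, at 42.8 and 48.1 TPM in cytoplasm and 95.2 and 98.7 in nucleus (1.08 ± 0.07), though it did not pass in total RNA. The 3 of 10 and 3 of 8 were near the 30.0% of all genes, and in lists this short 0 lower is not read as a result. In all 4 polyA libraries 19 members were listed at 0, and 16 of them were at 10 TPM or more in day 0 INPUT, among them ZNF281, at 417 and 416 TPM there. Since SOX2 and such abundant genes are listed at 0, these zeros are not read as absence of the RNA from the polyA fraction.

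**Figure D5:**
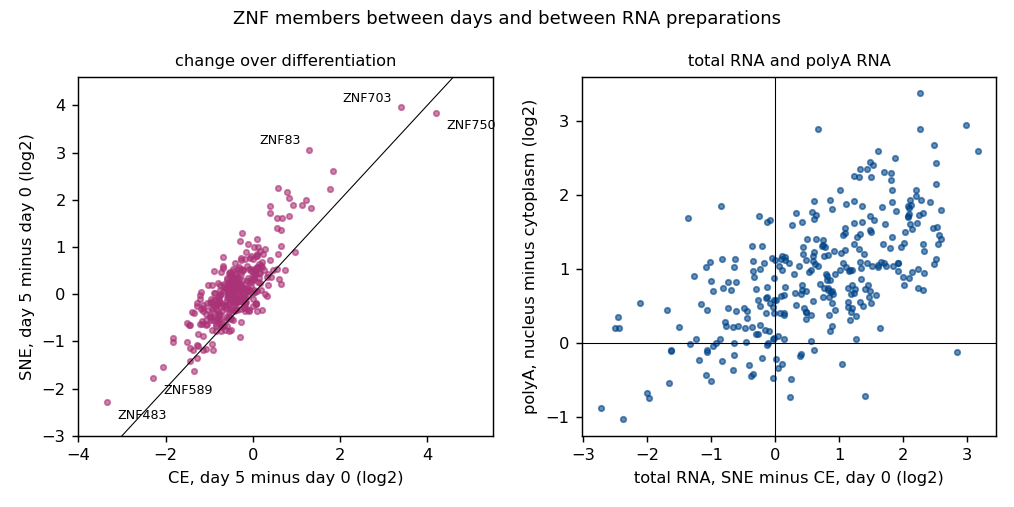
Each point is a ZNF member. The left panel plots the day 5 minus day 0 log2 difference in SNE against that in CE with the line of equality, where most points lie above the line, and the right panel the polyA nucleus minus cytoplasm difference against the day 0 total RNA SNE minus CE difference, where the rank correlation is 0.606 over 308 members.

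The SNE minus CE difference of some members grew over differentiation, and that of 0 members fell past the threshold. The test was the difference between days of the SNE minus CE difference, and the day 3 and day 5 tests share the day 0 libraries. On day 3, 21 members had a larger SNE minus CE difference than on day 0 and 0 a smaller one (2.44% and 1.32% of all genes tested), with a median change of 0.50 against 0.08 for all genes. On day 5 they numbered 19 and 0 (5.63% and 1.53%), with a median change of 0.48 against 0.21. Of the other protein-coding genes at the same INPUT threshold, 3.77% were called larger and 0.178% smaller on day 3 (median change 0.18). On day 5 these were 5.97% and 0.441% (median change 0.28). The 0 smaller among the members was thus near the share of those genes on both days. At day 5 the members' share of calls was near that of all genes. Of the 21 members called on day 3, 15 had a day 0 difference below 0, of which 5 were called lower on day 0. The other 6 were above 0, of which 4 were called higher on day 0. On day 3, 20 of the 21 were above 0. Of the 19 called on day 5, 14 had a day 0 difference above 0, 12 of them called higher already, and 5 had one below 0. In the limma fit 0 members had a smaller difference on day 3 at an unadjusted p under 0.05 and 99 a larger one (5.32% and 10.6% of all genes), and on day 5 these were 1 and 109 (4.84% and 18.8%). The same shares were not counted over the other protein-coding genes. With a common median 10 and 3 members passed as larger, and with quantile normalisation 2 passed as smaller on day 5.

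Of the members called, ZNF646 had the largest day 3 change. It was at 96.0 and 102 TPM in CE and 45.3 and 32.0 in SNE on day 0, and at 51.8 and 61.4 in CE and 91.5 and 85.3 in SNE on day 3, so the order of the extracts turned over without overlap (2.00 ± 0.34; adjusted p = 0.000612). ZNF469, the gene of brittle cornea syndrome, went from near-equal extracts to 5.68 and 6.39 TPM in CE and 22.6 and 22.5 in SNE (1.83 ± 0.30). ZNF574 (1.55 ± 0.27), ZNF483 (1.55 ± 0.33), ZNF460 (1.48 ± 0.19) and ZNF318 (1.38 ± 0.26) followed. On day 5 the largest change was that of the KRAB gene ZNF83, at 6.16 and 6.21 TPM in CE and 16.2 and 15.6 in SNE on day 0, and 16.1 and 17.3 in CE and 138 and 141 in SNE on day 5 (1.76 ± 0.33; adjusted p = 0.000907). Both extracts of ZNF83 rose, SNE by more. After it came ZNF432 (1.67 ± 0.18), ZNF646 (1.48 ± 0.34), ZNF367 (1.43 ± 0.26), ZNF789 (1.38 ± 0.39) and ZNF697 (1.37 ± 0.25), and the list includes ZNF91 (1.07 ± 0.20). ZNF432 and ZNF44, which are in the lists of both days, were at 4.69 and 4.47 TPM in day 0 INPUT. Their later days, at 13.9 and 11.1 TPM on day 5, made them members, so their changes are a description only.

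Between day 0 and day 5, more members fell than rose in the cytoplasmic extract on the TPM scale, as for all genes, a balance that turned with the scaling. In CE 7 members rose (2.04%) and 39 fell (11.4%), where 4.41% and 9.98% of all genes tested did. Of the other protein-coding genes at the same INPUT threshold 6.68% rose and 10.9% fell, so the members' share that fell was near both. The median was −0.43, against −0.22 for all genes and −0.24 for the other protein-coding genes. With a common median 21 members rose and 5 fell, and with quantile normalisation 10 and 10. Of the 326 members at 5 TPM or more in INPUT of every day, a restriction chosen after the data were seen, 5 rose and 37 fell in CE and 18 rose and 13 fell in SNE. In SNE 23 of all members rose and 13 fell (9.56% and 10.2%), with a median of 0.02 against −0.0034. In such bulk samples fewer cells of a type and less RNA per cell cannot be told apart.

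ZNF750 and ZNF823 were under 5 TPM in day 0 INPUT (0.037 and 2.94) and ZNF469 in day 5 INPUT (3.60), so that the days on which they were high made them members, and their values between days are a description only. Of the members that rose, ZNF750, a regulator of epidermal differentiation, was at 0 and 0.068 TPM in the day 0 CE libraries and at 18.3 and 17.6 on day 5, and no fold is given because day 0 was at or near 0. ZNF703 was at 12.8 and 15.0 TPM in day 0 CE and 148 and 164 in day 5 CE (3.40 ± 0.71; adjusted p = 0.000912), and in SNE at 2.50 and 1.13 on day 0 and 44.9 and 38.7 on day 5 (3.97 ± 0.71). Day 3 libraries of ZNF703 lay between those of days 0 and 5 in both extracts, without overlap. ZNF518B (1.85 ± 0.25), ZNF823 (1.77 ± 0.25), ZNF641 (1.34 ± 0.41) and ZNF83 (1.3 ± 0.23) also rose in CE. Of the members that fell, ZNF483, which carries a KRAB box and a SCAN domain, was at 205 and 215 TPM in day 0 CE, 48.9 and 52.1 in day 3 CE and 19.6 and 19.98 in day 5 CE (−3.34 ± 0.23; adjusted p = 6.14e-10). Its SNE values were 136 and 132 on day 0 and 27.1 and 26.1 on day 5 (−2.29 ± 0.23), so the fall was seen in both extracts. ZNF589, a KRAB gene studied in blood stem cells, was at 269 and 279 TPM in day 0 SNE and 77.0 and 81.0 on day 5 (−1.78 ± 0.16). Next in CE were ZNF860 (−2.07 ± 0.69), ZNF398 (−1.82 ± 0.10), a regulator of pluripotency, ZNF469 (−1.82 ± 0.22) and ZNF891 (−1.52 ± 0.12), and in SNE ZNF296 (−1.63 ± 0.22), ZNF215 (−1.42 ± 0.20), ZNF391 (−1.35 ± 0.30) and ZNF18 (−1.19 ± 0.38). By list, the transposon repressors had ZNF141 lower in CE (−1.20 ± 0.10) and ZNF525 in SNE (−1.18 ± 0.20), and the RNA and protein handling genes ZNF638 in CE (−1.20 ± 0.20). The stem cell and developmental regulators had ZNF703 higher in both extracts, ZNF462 lower in CE (−1.36 ± 0.21) and ZNF398 lower in both.

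INPUT of the genes that moved is given as a description, since INPUT chose the members. ZNF483 was at 159 and 163 TPM on day 0, 63.8 and 63.8 on day 3 and 19.9 and 20.8 on day 5, and ZNF703 at 8.41 and 8.24 on day 0, 25.8 and 28.4 on day 3 and 111 and 104 on day 5. Both series moved one way with no overlap between days. Over all members, both day 5 libraries lay above both day 0 libraries in 102 and below in 184, where 28.8% and 41.7% of all genes tested did so, and by 2-fold or more in 16 and 15 (7.79% and 9.84%). On day 3, 120 lay above and 149 below (30.6% and 35.8% of all genes), and 7 members were up and 2, ZNF483 and ZNF296, were down 2-fold or more (5.67% and 6.16%). ZNF281, the most abundant member, was at 417 and 416 TPM on day 0 and 245 and 252 on day 5.

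The genes of the partners through which KRAB proteins silence DNA were called in both directions. The list held 22 symbols, of which FAM208A and TASOR name the same gene, and all 21 genes were found. On day 0 5 were higher in SNE than in CE and 3 lower, then 8 and 1 on day 3 and 7 and 3 on day 5. These are read beside 30.0% and 8.66%, 30.5% and 6.64%, and 35.9% and 8.17% of all genes called higher and lower on those days. TRIM28, the KRAB-binding corepressor, was at 1697 ± 14.4 TPM in CE and 465 ± 0.600 in SNE on day 0 (mean ± SD, n = 2; −1.86 ± 0.16). On day 3 its difference was −0.49 ± 0.16 and did not pass, a change from day 0 of 1.37 ± 0.22 (adjusted p = 0.0004), on day 5 it was −1.19 ± 0.16, and in polyA RNA 0.22 ± 0.05. CBX1, one of the heterochromatin proteins it gathers, was lower in SNE as well (−1.49 ± 0.10). ATRX, a chromatin remodeller of heterochromatin, was higher in SNE (2.42 ± 0.15), as were SMARCAD1 (1.86 ± 0.19), ATF7IP (1.22 ± 0.16), a partner of the methyltransferase SETDB1, and TASOR (1.39 ± 0.12) and PPHLN1 (2.02 ± 0.25) of the HUSH complex. SETDB1 itself had 0.69 ± 0.15 and did not pass.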

How the data were processed

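The members, the 3 lists of ZNF genes and the list of corepressor genes were chosen with earlier results of these data known. The deposited tables give TPM per gene and library; that the unit is TPM was read from equal column totals, and which tool produced the tables is not given in the sources used here. Per the submitters' processing notes, the genome was hg38, and the tools named are Salmon 1.3.0, featureCounts 1.6.2, HISAT2 2.0.5 and GATK. TPM removes the library total, so each value is a share of the RNA in its library.

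Each library was used as deposited, on log2(TPM + 1). After a filter of 1 TPM in 2 libraries, genes were tested with limma 3.58.1 (R 4.3.3; trend and robust options) in one fit of 18 group means over the 36 total RNA libraries (18 residual degrees of freedom) and a separate fit of the 4 polyA libraries, with Benjamini-Hochberg adjustment over all genes tested. Deviations from group means of same-numbered libraries had correlations of −0.040 to 0.071, so no block was used. That check took in low-level genes and shallow libraries and cannot exclude pairing. Members were named as follows: the list members, the 6 called members with the largest difference in each direction of each comparison, the 5 highest in INPUT and the 3 genes on either side of the threshold. Other named values were chosen after they were seen. Alternatives tried were a pseudocount of 0.1, no filter, 3 other scalings, a replicate block, leaving out each library, a member threshold of 10 TPM, a fit of only the groups compared and, added after the data were seen, only the members at 5 TPM in INPUT of every day. Gene models and coordinates are GENCODE 29 on GRCh38, and domains were found by pattern in translated GENCODE coding sequences, not in RefSeq proteins as planned. On simulated data with 200 genes changed by 1.5 (log2) between day 0 SNE and CE, 69.5% were recovered and 14 of 153 calls were false over 23817 genes.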

Additional observations from a re-analysis of the deposited data

Results flagged for a closer look

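These results were listed because the nuclear minus cytoplasmic difference itself changed between days, by limma's interaction test with Benjamini-Hochberg adjustment. The day 3 and day 5 tests share the day 0 libraries. The groups of 2 libraries are too small for a test of single outlying samples. On day 3, 21 members had a larger SNE minus CE difference than on day 0, where 2.44% of all genes tested did. Of the other protein-coding genes at the same INPUT threshold, 3.77% did. On day 0, 15 of the 21 had a difference below 0, and 5 of these were called lower. The largest called changes on the log2 scale were 2.00 for ZNF646, 1.83 for ZNF469, 1.55 for ZNF574, 1.55 for ZNF483, 1.48 for ZNF460 and 1.38 for ZNF318. On day 5 the larger differences numbered 19, near the 5.63% of all genes, led by 1.76 for ZNF83, 1.67 for ZNF432, 1.48 for ZNF646, 1.43 for ZNF367, 1.38 for ZNF789 and 1.37 for ZNF697. ZNF432 was at 4.69 TPM in day 0 INPUT and became a member through its later days, so its change is a description only. Day 5 changes cannot be told apart from the split of library numbers between day 5 CE and SNE. In each of the genes named here the change has a positive sign, and the causes were not tested.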

How the results depend on the processing

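Counts of called members are given as higher and lower, without the share of all genes called under the same setting, and are not set against all genes. With a common median they were 52 and 77, 71 and 48, and 66 and 78 for SNE against CE on days 0, 3 and 5, 19 and 33 for ME against CE on day 0, 4 higher on day 5, 10 and 3 higher for the changes to days 3 and 5, 21 and 5 for CE between days 0 and 5, and 66 and 11 for polyA RNA. With quantile normalisation they were 84 and 46, 101 and 23, and 101 and 41 for SNE, 57 and 13, 16 and 2, and 20 and 1 for ME, 2 lower for the change to day 5, 10 lower for CE between days, and 72 and 11 for polyA RNA. With totals without mitochondrial and structured RNA, SNE had 9 lower on day 0 and 1 on day 3, ME had 136 and 2, 172 and 1, and 160 and 0, and the change to day 3 had 33 higher. A pseudocount of 0.1 gave 5 higher in day 3 ME, and a member threshold of 10 TPM 0 lower in polyA RNA. A fit of only the groups compared gave 13 lower in day 3 SNE, 2 and 8 lower in ME on days 3 and 5, and 35 and 29 higher for the changes to days 3 and 5. The cause of these shifts was not tested. Restricted to the 326 members at 5 TPM in INPUT of every day, an alternative added after the data were seen, no count moved by over 1.5 times.

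Leaving out 1 library gave 129 to 130 higher and 13 to 18 lower in SNE on day 0, 168 to 184 and 4 to 5 on day 3, and 165 to 172 and 9 to 11 on day 5. For ME the ranges were 10 to 11 and 36 to 45, 1 to 5 and 1 to 6, and 2 to 15 and 2 to 3, for the changes 14 to 23 and 14 to 20 higher with 0 lower, and for polyA RNA 133 to 149 and 0 to 1. Between days 0 and 5 they were 6 to 6 and 30 to 34 in CE and 21 to 24 and 10 to 12 in SNE. Without polyA nucleus replicate 1 no member was lower, without CE replicate 2 of day 3 the ME counts were 5 and 3, and the other libraries that moved a count by over 1.5 times are named with the results.

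Of the single-gene values that passed, 1257 kept their direction and their side of the threshold across the settings, 152 kept the direction without passing and 0 turned. All 12 that turned had not passed, all in SNE against CE on day 0: with a common median ZNF587 −0.34, ZNF649 −0.76, ZNF382 −0.29, ZNF445 −0.60, ZNF598 −0.65 and ZNF706 −0.39; with quantile normalisation ZNF382 −0.30, ZNF445 −0.26 and ZNF706 −0.15; with totals without mitochondrial and structured RNA ZNF398 0.31 and ZNF330 0.30; and without 1 of the day 0 libraries ZNF398 −0.051 to 0.0033, the upper value without CE replicate 2. With the replicate block, SNE had 133 higher and 21 lower on day 0, 181 and 8 on day 3, and 174 and 12 on day 5, and polyA RNA 140 and 1. No count moved by over 1.5 times, and whether replicate numbers pair the libraries is not known. Depth limits CBNE and PE, whose members were not tested singly.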

Other observations

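Zinc finger genes outside the selection were counted in the same fits. Beside them, 30.0% of all genes tested were called higher and 8.66% lower in SNE on day 0, and 30.5% and 6.64% on day 3. In polyA RNA 30.0% were called higher in the nucleus and 6.22% lower. No test against these shares was made. Of the 57 ZNF genes tested with 1 to under 5 TPM in INPUT, 19 were higher in SNE than in CE on day 0 and 2 lower (median log2 difference 0.75), and 14 of 49 were higher in the polyA nucleus with 0 lower. Of 35 expressed genes named ZFP, ZSCAN, ZKSCAN or ZIK, relatives with similar finger arrays, 7 were higher in SNE and 4 lower on day 0 and 14 and 0 on day 3, with 13 of 31 higher in the polyA nucleus. Of 43 expressed ZBTB and KLF genes, zinc finger factors of other classes, 10 were higher and 5 lower on day 0, 22 and 2 on day 3, and 10 of 42 higher in the polyA nucleus. The median change of the SNE minus CE difference from day 0 to day 3 was 0.74 for the ZBTB and KLF genes. That of the ZFP and related genes was 0.48, that of the ZNF genes under 5 TPM 0.23 and that of all genes 0.08.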
